A study of Mus musculus with 4 samples.

Results

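The nuclear genes of respiratory chain complexes I and III were taken as every protein-coding gene whose symbol starts with Nduf or Uqcr in the curated RefSeq models of the mm10 mouse genome. The rule found 56 genes of 21000 protein-coding genes. RUNX1 peaks were assigned to the gene whose transcription start site (TSS) lay nearest to the peak edge, and 28 of 10494 peaks fell to 27 of these genes. The peaks came from ChIP-seq of ovaries from CD1 mouse embryos at E14.5, with 2 RUNX1 ChIP samples and 2 input samples without antibody. Each ChIP used 20-30 µg of chromatin from a pool of 80-100 whole XX gonads freed of mesonephros, so germ cells and somatic cells were measured together. The number of ovaries is that of the sample labels, and the methods of the study give a larger one. No sample carried an engineered allele or a treatment. The authors merged both ChIP replicates before calling peaks, so each peak has 1 fold value, no replicate error and no read depth of its own. A peak list holds no expression values, and the tissue label could not be checked against ovarian markers.

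Complex I takes electrons from NADH and passes them through a flavin and a chain of iron-sulphur clusters to ubiquinone, while complex III passes them from ubiquinol to cytochrome c. Both move protons across the inner mitochondrial membrane. Further subunits are encoded in mitochondrial DNA, and a few nuclear genes of these complexes, such as Cyc1, carry other names. RUNX1 is a DNA-binding transcription factor that acts with the partner CBFB and is found in supporting cells of the fetal ovary. The nuclear subunit genes are used in nearly all cells, and their promoters are known for sites of NRF1, YY1 and the ETS factor GABP.

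The DNA under the strongest peaks of the set, and under 3 weaker peaks that held a RUNX core, is given here because it shows which of them held the letters RUNX1 is known to bind. A RUNX core was TGTGGT or TGCGGT, which reads ACCACA or ACCGCA from the opposite strand. An ETS site was CCGGAAGT, an NRF1 site GCGCANGCG and a YY1 site AANATGGCG, all searched on both strands. Sequences are from the GRCm38 (mm10) reference, 5′ to 3′ on the strand of the member gene, and capitals mark RUNX cores, ETS sites and NRF1 sites. Stretches of 30 bases show the window around 1 site, and the others are the longest part of the peak outside annotated exons.
Ndufs1, chr1:63176821-63176850, minus strand: aggcctcggctACTTCCGGcggaactgcag
Ndufb11, chrX:20618101-20618400, minus strand: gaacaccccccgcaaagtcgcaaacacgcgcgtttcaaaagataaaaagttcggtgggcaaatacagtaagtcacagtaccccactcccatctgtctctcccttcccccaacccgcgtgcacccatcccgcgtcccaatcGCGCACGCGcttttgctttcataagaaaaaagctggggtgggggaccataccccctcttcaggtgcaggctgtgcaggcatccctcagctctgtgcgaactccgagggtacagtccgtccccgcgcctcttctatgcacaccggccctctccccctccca
Ndufa4, chr6:11594095-11594394, minus strand: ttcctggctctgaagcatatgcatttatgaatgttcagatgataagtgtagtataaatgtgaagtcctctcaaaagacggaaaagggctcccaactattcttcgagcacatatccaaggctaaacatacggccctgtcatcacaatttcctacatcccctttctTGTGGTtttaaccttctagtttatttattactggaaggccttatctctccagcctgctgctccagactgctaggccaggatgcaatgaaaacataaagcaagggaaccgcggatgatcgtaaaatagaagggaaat
Ndufb4, chr16:37684877-37685176, minus strand: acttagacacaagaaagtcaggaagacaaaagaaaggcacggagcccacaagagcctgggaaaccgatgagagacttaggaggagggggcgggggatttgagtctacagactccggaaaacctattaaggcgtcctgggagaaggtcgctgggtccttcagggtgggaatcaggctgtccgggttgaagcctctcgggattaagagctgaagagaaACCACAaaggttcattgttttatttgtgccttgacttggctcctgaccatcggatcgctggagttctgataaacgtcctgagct
Ndufs7, chr10:80249215-80249448, plus strand: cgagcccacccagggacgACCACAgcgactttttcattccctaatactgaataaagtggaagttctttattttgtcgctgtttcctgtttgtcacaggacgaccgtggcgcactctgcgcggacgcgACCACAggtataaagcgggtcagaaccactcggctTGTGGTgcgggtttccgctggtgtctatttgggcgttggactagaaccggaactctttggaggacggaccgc
Ndufa1, chrX:37191535-37191564, minus strand: ttctccgggcggACCACAgagctgccttca
Ndufb7, chr8:83566931-83566995, plus strand: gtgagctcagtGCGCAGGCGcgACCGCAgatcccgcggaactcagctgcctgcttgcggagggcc
Ndufv2, chr17:66101141-66101414, minus strand: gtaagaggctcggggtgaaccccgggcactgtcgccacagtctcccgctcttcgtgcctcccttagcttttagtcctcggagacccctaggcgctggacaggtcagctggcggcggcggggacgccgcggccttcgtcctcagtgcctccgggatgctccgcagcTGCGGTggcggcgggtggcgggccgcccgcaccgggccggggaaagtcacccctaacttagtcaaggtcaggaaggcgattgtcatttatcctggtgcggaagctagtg

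The Ndufs1 window held an ETS site and its peak held no RUNX core, and the Ndufb11 stretch held an NRF1 site and no RUNX core. The distal Ndufa4 and Ndufb4 stretches each held 1 core of the TGTGGT form. The Ndufs7 stretch held 3 cores, all of the TGTGGT form, and of 2 more of the TGCGGT form, 1 crossed the end of the stretch at the TSS and 1 lay past it in intron 1. The Ndufb7 stretch held an NRF1 site next to a core of the TGCGGT form.

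Of the 56 complex I and III genes, 27 were nearest to at least 1 peak, which is 48.2% (95% exact Clopper-Pearson interval 34.7-62.0%, for counting over genes only). The same was true of 39.1% of all protein-coding genes, a value inside that interval. A peak within 1 kb of a TSS, whichever gene was nearest, was found for 29 members or 51.8%, beside 37.4% of all protein-coding genes. The interval above belongs to the nearest-gene share only, and none was computed for the share within 1 kb. Only 8 members, or 14.3%, were nearest to a peak of fold 8 or more, beside 13.8% of all genes. The fold is the ratio of ChIP signal to background as given by the peak caller, and the smallest in the list was 4.01. Taking the highest peak per gene, the median over the 27 genes was 6.02 and the range 4.32 to 21.8, beside a median of 6.66 over all genes nearest to a peak.

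**Figure D1:**
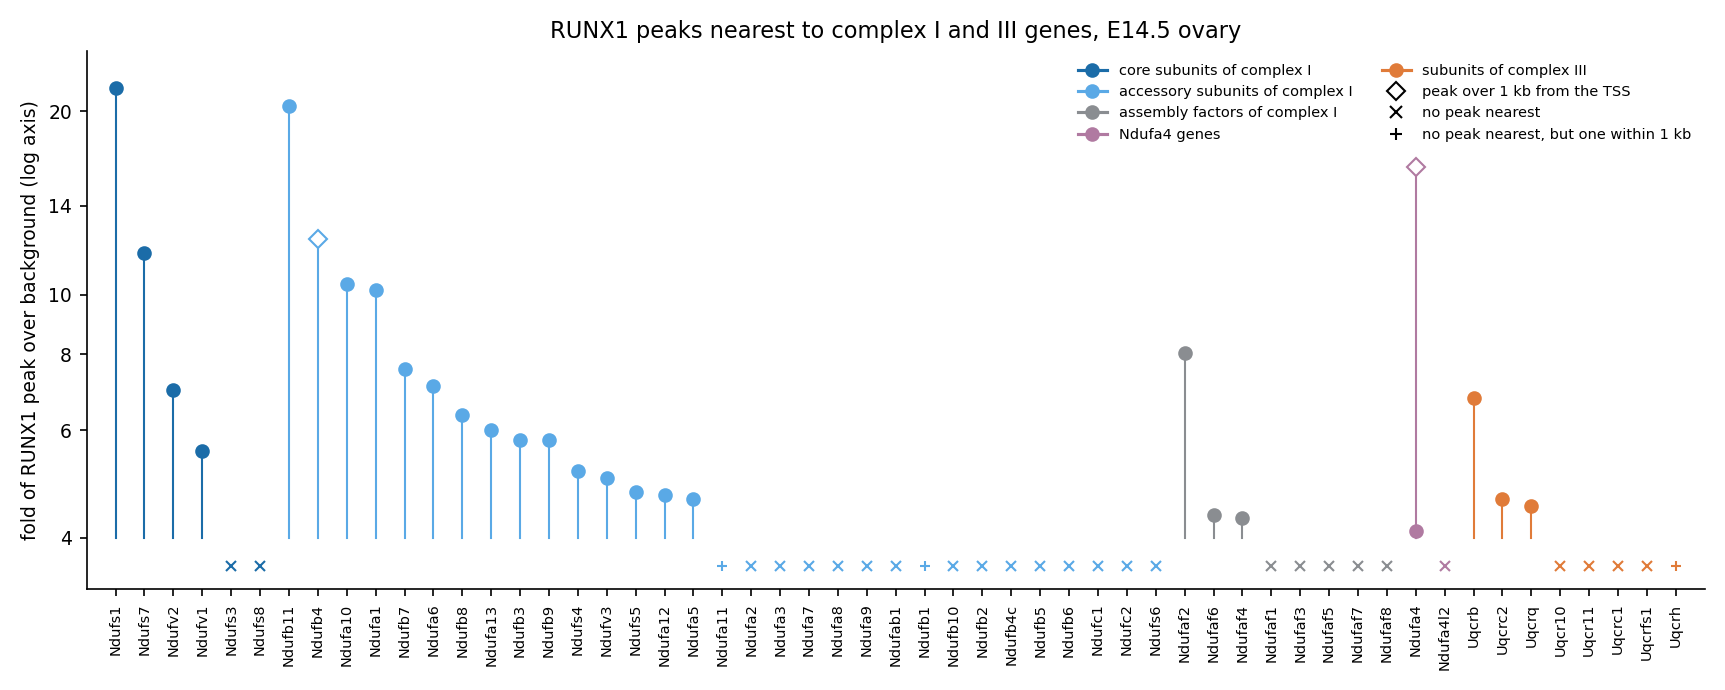
Fold of each RUNX1 peak (log axis) nearest to each of 55 of the 56 complex I and III genes, ordered by role and fold, with open diamonds for peaks over 1 kb from the TSS and crosses or plus signs for genes nearest to none. Ndufs1 and Ndufb11 stood above 20-fold, 29 genes carry a cross or a plus sign, and plus signs mark Ndufa11, Ndufb1 and Uqcrh, which had a peak within 1 kb that was nearer to another gene.

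Among the 7 core subunits of complex I, which carry the flavin, the iron-sulphur clusters and the quinone site, 5 (71.4%, interval 29.0-96.3%) were nearest to a peak. Ndufs1, the large iron-sulphur subunit of the electron input module, had the peak of highest fold in the set. Its peak at chr1:63176751-63177050 had a fold of 21.84 and a caller p-value of 2.77e-111, and ranked 251 among all peaks by fold. It covered the TSS of Ndufs1 and also that of Eef1b2, a translation elongation factor gene that starts 9 bp away on the other strand, so it was assigned to both. The 2 promoters cannot be told apart at this peak width.

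Ndufs7, whose product carries the last iron-sulphur cluster before ubiquinone, had a peak of fold 11.72 at chr10:80249215-80249514, with a caller p-value of 4.35e-53. This peak covered the TSS of Ndufs7, had no other gene within 1 kb, and held 5 RUNX cores and 1 YY1 site. A count of 5 or more cores was reached by 4 peaks of the whole list, or 0.0381%, and no other member peak held more than 1. By midpoint, the 5 cores lay 15 to 144 bp from the centre of the peak.

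The folds of Ndufv2 and Ndufv1, both core subunits, were lower. Ndufv2, the iron-sulphur partner of the flavin subunit, had a peak of fold 6.99 in intron 1, 119 bp from its TSS, with 1 core. Ndufv1, the subunit that binds NADH and flavin, had a peak of fold 5.55 in coding exon 1, with 1 core. Ndufs3 and Ndufs8 were nearest to none, and their nearest peaks lay 12805 bp and 16787 bp away.

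Of the 31 accessory subunits of complex I, which surround the core and stabilise it, 15 (48.4%, interval 30.2-66.9%) were nearest to a peak, and their median strongest fold was 6.02. Ndufb11, an X-linked membrane-arm subunit, had a peak of fold 20.36 at chrX:20618101-20618400, 482 bp upstream of its TSS and within 1 kb of Rbm10, a splicing regulator gene. Its caller p-value was 1.74e-21, many orders above that of Ndufs1, although the folds of these 2 strongest member peaks were close. A second peak of fold 4.44 lay 123 bp from the Ndufb11 TSS but 7 bp from that of Rbm10, and was assigned to Rbm10. The next accessory peak by fold, 12.34, lay 30509 bp upstream of Ndufb4.

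Ndufa10 had a peak of fold 10.41 that covered its TSS and held no RUNX core. Ndufa1, the other X-linked member, had a peak of fold 10.18 lying 110 bp upstream, with 1 core and with Rnf113a1 within 1 kb. Ndufb7 had a peak of fold 7.56 over its TSS, with 1 core and 1 NRF1 site. Ndufa6 had a peak of fold 7.1, 126 bp upstream, with neither a RUNX core nor an ETS, NRF1 or YY1 site. The folds of these 4 genes fell between those of Ndufb4 and the median of the accessory subunits.

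The remaining accessory peaks were of fold 6.35 or lower. They were those of Ndufb8 at 6.35, Ndufa13 at 6.02, Ndufb3 and Ndufb9 at 5.79 each, Ndufs4 at 5.14, Ndufv3 at 5.01, Ndufs5 at 4.76, Ndufa12 at 4.71 and Ndufa5 at 4.63. Ndufs4, a subunit whose loss causes Leigh syndrome, had its peak in intron 1, 251 bp from the TSS and without a core. The Ndufa13 peak lay in coding exon 2, 300 bp from the nearest TSS of the gene, and held 1 RUNX core and 1 ETS site. The Ndufb3 peak also covered the TSS of Fam126b and was assigned to both.

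The 16 accessory subunits nearest to no peak were Ndufa2, Ndufa3, Ndufa7, Ndufa8, Ndufa9, Ndufa11, Ndufab1, Ndufb1, Ndufb2, Ndufb4c, Ndufb5, Ndufb6, Ndufb10, Ndufc1, Ndufc2 and Ndufs6. Of these, Ndufb1 had a peak of fold 24.81 at a distance of 160 bp from its TSS, higher than any fold assigned to a member. That peak covered the TSS of Cpsf2, a pre-mRNA cleavage factor gene that starts 236 bp from Ndufb1 on the other strand, and was therefore assigned to Cpsf2. Ndufa11 likewise had a peak of fold 4.36 at 231 bp that was nearer to Vmac. Ndufa7 had a peak of fold 6.02 inside its gene body that was nearest to Cd320. By symbol, 7 of 14 Ndufa genes, 6 of 12 Ndufb genes and 5 of 8 Ndufs genes were nearest to a peak. The same held for 3 of 3 Ndufv genes and 0 of 2 Ndufc genes. The 39.1% of all protein-coding genes lay inside the exact interval of each of these symbol groups. Ndufb4c has 1 exon in the gene models and was counted as an accessory subunit by its symbol only.

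Of the 8 assembly factors named Ndufaf, which help to build complex I without staying in it, 3 (37.5%) were nearest to a peak. Ndufaf2, a relative of the subunit Ndufa12, had a peak of fold 8.02 in intron 1, 68 bp from its TSS and near the head-to-head gene Ercc8, a DNA repair gene. Ndufaf6 had a fold of 4.36 with 1 core, and Ndufaf4 a fold of 4.32 without a core. Ndufaf1, Ndufaf3, Ndufaf5, Ndufaf7 and Ndufaf8 were nearest to none. Ndufaf4 and Ndufaf3 act as a pair in the same assembly step, and the nearest peak to Ndufaf3 lay 6829 bp from its TSS.

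Of the 8 subunits of complex III, 3 (37.5%, interval 8.52-75.5%) were nearest to a peak, none of fold 8 or more. Uqcrb, a small subunit beside the ubiquinone pocket, had a peak of fold 6.79 over its TSS with a YY1 site. Uqcrc2, a core protein of the matrix side, had a peak of fold 4.63, and Uqcrq a peak of fold 4.51. Uqcrh, the hinge protein, had a peak of fold 7.17 at 262 bp from its TSS that was nearer to Lrrc41. Uqcrc1, Uqcrfs1 (the Rieske iron-sulphur protein), Uqcr10 and Uqcr11 had none. The nearest peaks to Uqcrc1 and Uqcrfs1 lay 145440 bp and 114761 bp away, and none of the 3 complex III peaks held a RUNX core.

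Ndufa4 carries a complex I name but its product is known as a subunit of cytochrome c oxidase, and it was the only member nearest to 2 peaks. The weaker, of fold 4.1, covered its TSS and lay within 1 kb of Phf14. The stronger, of fold 16.2 at chr6:11594095-11594394, lay 313056 bp away beyond the 3′ end of the gene, where Ndufa4 was the nearest TSS. Its hypoxia-induced relative Ndufa4l2 was nearest to none, with the closest peak 106741 bp away. It was also the only member in the lowest quartile of promoter CpG content.

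Peaks of the set lay close to gene starts. Of the 28 peaks, 26 (92.9%) lay within 1 kb of a TSS, beside 76.0% of all peaks, and 13 (46.4%) covered a TSS, beside 34.2%. Among peaks within 1 kb the share covering a TSS was 50.0% (13 of 26) for members and 45.1% for all peaks near a protein-coding TSS. Midpoints of the 26 near peaks lay downstream of the TSS in 18 (69.2%) and upstream in 8, with a median of 96.0 bp downstream. Over all near peaks 69.6% lay downstream, with a median of 102 bp. By midpoint, 8 of the 26 were upstream, 3 in a 5′ UTR, 7 in coding exons and 8 in intron 1, and 23 lay within 300 bp of the TSS.

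**Figure D2:**
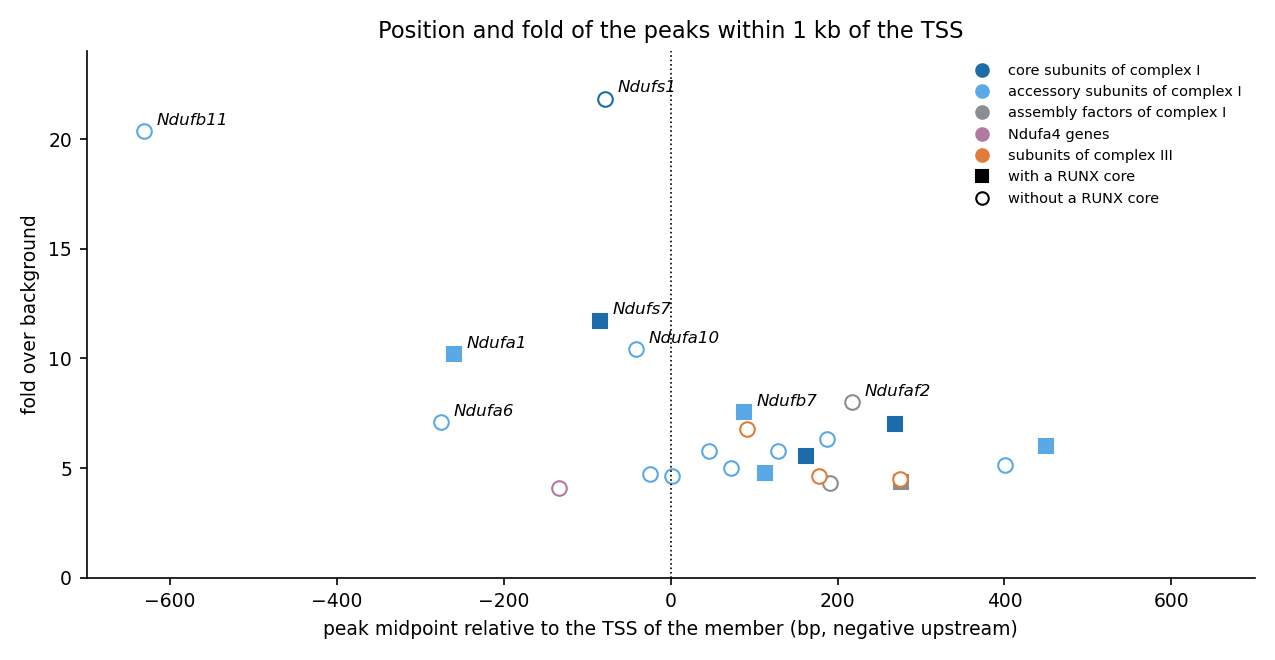
Fold of 25 of the 26 peaks within 1 kb of the TSS of their member (vertical axis) against the distance of the peak midpoint from that TSS in bp (horizontal axis, negative upstream), with filled squares for peaks holding a RUNX core and open circles for those without. The 5 peaks above 10-fold (Ndufs1, Ndufb11, Ndufs7, Ndufa10 and Ndufa1) stand upstream of the dotted TSS line, and the 17 plotted peaks downstream of it stay at or below a fold of 8.02.

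The folds of the member peaks were not high for this list. Their median was 5.90 (quartiles 4.75 and 8.56), beside 6.41 (5.02 and 8.89) over all peaks. Over the 4 fold quartiles of all peaks, from lowest to highest, the members held 9, 7, 5 and 7 peaks. A fold of 8 or more was found for 8 member peaks (28.6%), beside 32.1% of all peaks.

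From the side of the genes, the distance from a member TSS to the nearest peak of any assignment had a median of 281 bp, with quartiles of 24 and 25717 bp. Over the 20923 protein-coding genes on chromosomes with a peak the median was 19835 bp, with quartiles of 104 and 110323 bp. A peak lay within 1 kb of 29 members (51.8%), beside 37.6% of those genes, so the member median of 281 bp depends on a few genes. A peak lay within 10 kb of 37 members (66.1%), beside 44.0% of those genes. The 27 members without a peak within 1 kb had one at distances from 2573 bp (Ndufs6) to 145440 bp (Uqcrc1). Of these 27 distances, 19 were over 10 kb and 6 over 100 kb.

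A RUNX core was present in 11 of the 28 member peaks, or 39.3% (exact interval 21.5-59.4%), beside 39.9% of all peaks. In windows of the same width 1 kb to either side of the member peaks the share was 25.5% (14 of 55), beside 22.6% for such windows of all peaks. The TGTGGT form was found in 17.9% of member peaks and 21.8% of their side windows, beside 19.5% and 19.4% over all peaks. The TGCGGT form was found in 25.0% of member peaks and 3.64% of their side windows, beside 23.7% and 3.91% over all peaks. In the promoter windows described below, this form was found in 12.5% of 48 member promoters and 7.60% of all promoters. The TGTGGT form was found in 16.7% and 14.4% of them. The letters CG occur in the TGCGGT form and not in the TGTGGT form. Whether base composition accounts for the gap between peaks and side windows was not tested. The 15 cores in member peaks lay at a median of 69.0 bp from the peak midpoint. A core within the central 100 bp was found in 4 member peaks. Neither value was set beside all peaks, and whether cores gather at the peak centre was not tested.

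The 11 peaks with a core included those of Ndufs7, Ndufv2, Ndufv1, Ndufb4, Ndufa1, Ndufb7, Ndufa13, Ndufs5 and Ndufaf6, and the distal peak of Ndufa4. Their median fold was 6.99, beside 5.79 for the 17 without a core. Over all peaks the medians were 7.03 and 6.11. The highest folds in the set, those of Ndufs1 and Ndufb11, were without a core. Among the 5 peaks of core subunits 4 held at least 1, beside 39.9% of all peaks, but 5 peaks are too few for a comparison.

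Of the other sites, NRF1 sites were found in 3 member peaks (10.7%), those of Ndufb11, Ndufb7 and Ndufa5, beside 7.55% of all peaks. YY1 sites were found in 3 (10.7%), among them those of Ndufs7 and Uqcrb, beside 4.24%. ETS sites were found in 2 (7.14%), those of Ndufs1 and Ndufa13, beside 4.66%. The SP/KLF box GGGCGG was found in 46.4%, beside 57.0%, and CCAAT in 14.3%, beside 23.5%. The forkhead site TGTTTAC or TATTTAC was found in 0 of 28 peaks (exact upper bound 12.3%), beside 3.24% of all peaks. For each of these sites the share over all peaks lay inside the exact interval of the member peaks.

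**Figure D3:**
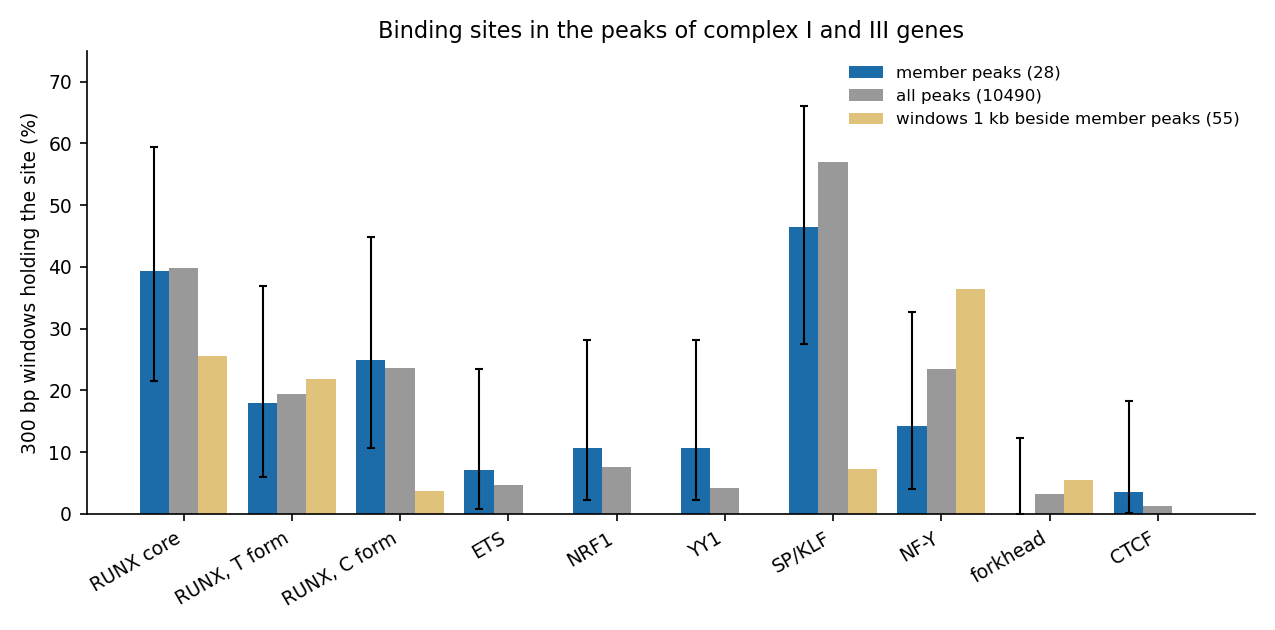
Percent of 300 bp windows holding each binding site on either strand in the 28 member peaks (blue, bars for the 95% exact interval over peaks), all 10490 peaks on assembled chromosomes (grey) and 55 windows 1 kb beside the member peaks (yellow), where T form and C form are the RUNX cores TGTGGT and TGCGGT and NF-Y is CCAAT. The grey bars lie inside the blue intervals for every site. The side windows held 0 ETS, NRF1, YY1 and CTCF sites. Side windows of all peaks, not plotted, also seldom held them, at 0.420%, 0.514%, 0.365% and 0.158% in the same order.

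Promoters of the members were also searched, in windows from 250 bases before to 50 bases after the start. These came from a separate set of promoters, matched by gene symbol, which held 46 of the 56 genes. An NRF1 site was found in 12 of these genes (26.1%), beside 9.97% of all genes with a window, and a YY1 site in 8 (17.4%), beside 3.77%. Of the 12 members with an NRF1 site 5 (41.7%) had a peak within 1 kb, beside 17 of 34 (50.0%) of the members without. Over all genes the shares were 65.1% with the site and 34.9% without. A RUNX core in the promoter window was found in 12 of the 46 members, beside 24.0% of all genes, and Ndufs7 alone of these had a peak within 1 kb (8.33%). Of the 34 members without a core in the window, 21 (61.8%) had a peak. The 11 members with a core and no peak were Ndufa3, Ndufa7, Ndufab1, Ndufaf1, Ndufaf5, Ndufb10, Ndufc2, Ndufs3, Ndufs8, Uqcr11 and Uqcrfs1. Over all genes the order was the opposite, 41.5% with a core and 36.7% without. The window ends 50 bases after the start, while 18 of the 26 near member peaks had midpoints downstream of the TSS. The Ndufb7 and Ndufs5 peaks each held a core, yet neither gene had one in the window. These shares therefore describe cores in the window and not cores in the peaks.

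Many members shared a start region with another gene. A gene on the opposite strand started within 1 kb upstream of 21 of the 56 members (37.5%), beside 11.6% of all protein-coding genes. Members with such a neighbour had a peak within 1 kb in 11 of 21 cases (52.4%), and members without in 18 of 35 (51.4%). Over all genes these shares were 66.7% and 33.6%. Of the 28 member peaks, 10 (35.7%) had the TSS of another gene within 1 kb, beside 13.5% of all peaks with more than 1 gene within that distance. Among peaks within 1 kb of a TSS these shares were 38.5% and 17.9%. These were the peaks of Ndufs1, Ndufb11, Ndufa1, Ndufaf2, Uqcrb, Ndufa13, Ndufb3, Ndufb9, Ndufa5 and Ndufa4. Which of the neighbours such a peak belongs to was not tested.

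The starts of the members were also rich in CpG. The ratio of observed to expected CpG in 500 bp on either side of the TSS had a median of 0.726 in members, beside 0.614 over all protein-coding genes. Members nearest to a peak had a median of 0.749 and the others 0.698. In the 4 CpG quartiles of all genes, from lowest to highest, the members numbered 1, 9, 31 and 15, and the share of all genes with a peak within 1 kb was 0.705%, 17.1%, 56.8% and 75.2%. Among the 46 members above the median, 26 (56.5%) had a peak within 1 kb, beside 66.0% of all genes there. In the third quartile, which held 31 of these 46, the shares were 45.2% and 56.8%. Nearest to a peak were 24 of these 46 (52.2%), beside 64.3%. In the highest quartile alone, 12 of 15 members (80.0%) had a peak within 1 kb, beside 75.2%.

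**Figure D4:**
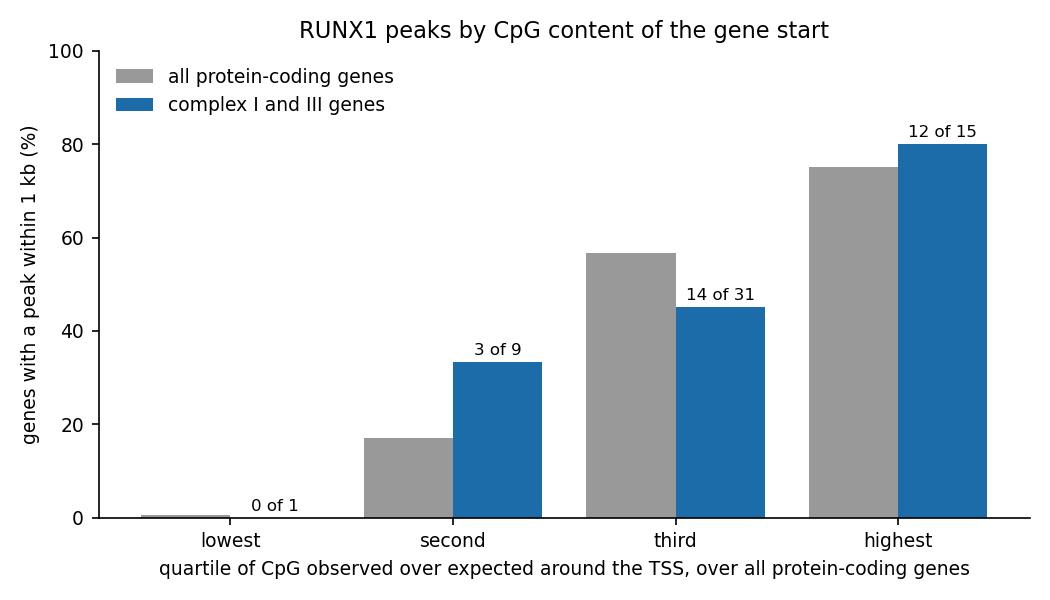
Percent of genes with a RUNX1 peak within 1 kb of a TSS (vertical axis) in each quartile of the observed over expected CpG ratio around the TSS, for all protein-coding genes (grey) and the 56 complex I and III genes (blue, with counts above the bars). Blue stands below grey in the third quartile (14 of 31 members) and above it in the second (3 of 9) and the highest (12 of 15).

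Shares of other genes of oxidative phosphorylation are set beside the 39.1% of all protein-coding genes, which lay inside the exact interval of each group. Of 8 genes of complex II, 4 (50.0%, interval 15.7-84.3%) were nearest to a peak, among them Sdha at a fold of 7.64 and Sdhc at 6.48. Of 27 genes of complex IV, 11 (40.7%, interval 22.4-61.2%) were, led by the assembly gene Cox14 at 28.03. Of 18 genes of ATP synthase, 9 (50.0%, interval 26.0-74.0%) were, led by Atp5g3 at 8.02. Of 8 genes of cytochrome c and complex III under other names, 4 (50.0%, interval 15.7-84.3%) were, with Uqcc2, an assembly factor, at 13.63, and Cyc1, the cytochrome c1 subunit, at 5.35.

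Complex I assembly factors under other names and regulators of respiratory genes were counted in the same way. Of 10 such assembly factors 8 (80.0%, interval 44.4-97.5%) were nearest to a peak, among them Tmem186 at a fold of 13.27, Dmac2 at 8.6, Dmac1 at 7.03 and Ecsit at 6.12. The 8 Ndufaf genes stood at 37.5% (interval 8.52-75.5%). Of 14 regulators 11 (78.6%, interval 49.2-95.3%) were nearest to a peak. Both intervals overlap that of the complex I and III genes, 34.7-62.0%, and both lie above the 39.1% of all genes. Both are wide and also include the 64.3% found for all genes above the CpG median. The CpG content of the genes in these lists was not examined. The regulators nearest to a peak included Gabpb1, a subunit of the ETS factor GABP, at 45.25, Tfb2m at 10.88, Tfam, which packs mitochondrial DNA, at 7.83 and Nrf1 at 7.4.

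Other gene families of general cell function had intervals that overlap that of the complex I and III genes. The shares were 62.8% (interval 51.1-73.5%) for 78 mitochondrial ribosomal protein genes, 59.3% (48.5-69.5%) for 91 cytosolic ribosomal protein genes and 56.9% (42.2-70.7%) for 51 proteasome genes. All 3 were above the 48.2% of the complex I and III genes. The 39.1% of all protein-coding genes lay below each of these 3 intervals, but inside that of the complex I and III genes, 34.7-62.0%. A peak of fold 8 or more was nearest to 16.7%, 23.1% and 33.3% of these families in the same order, beside 14.3% of complex I and III genes and 13.8% of all genes. Median strongest folds were 5.86, 7.40 and 8.56 in these 3 families, beside 6.02 in the complex I and III genes.

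**Figure D5:**
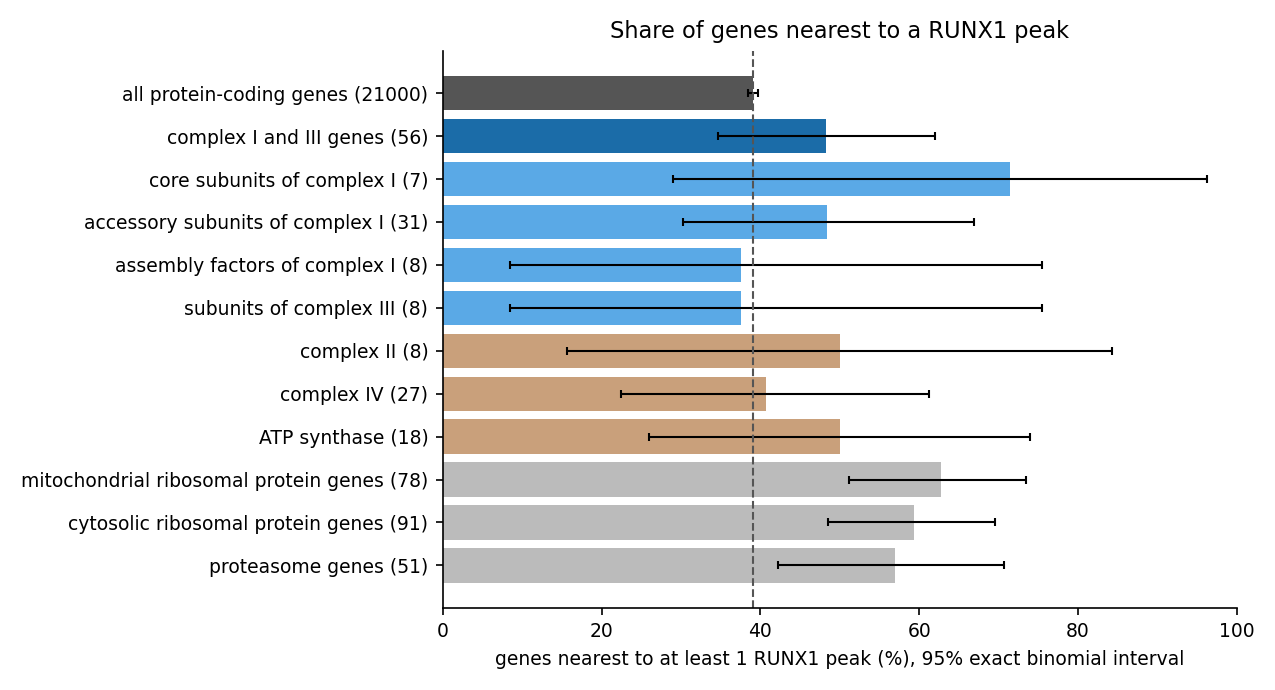
Percent of genes nearest to at least 1 RUNX1 peak in all protein-coding genes, the 56 complex I and III genes and their roles, other respiratory complexes and 3 other gene families, with the number of genes in brackets and bars for the 95% exact binomial interval over genes. The dashed line marks all protein-coding genes at 39.1%, which lies inside the interval of the complex I and III genes and of each of their roles.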

How the data were processed

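RUNX1 ChIP and input DNA from pooled E14.5 ovaries were sequenced for the study. Per the methods and the submitters' notes, the authors mapped reads to mm10 with Bowtie 1.2, removed duplicates with Picard 1.110, merged replicates and called peaks with HOMER 4.9, and bedtools 2.24.0 is also named. Every peak was set to 300 bp. As deposited, the 10494 peaks each have a position, a fold, which is a ratio to background, and a caller p-value. Peaks called on merged reads carry no replicate spread, and the reads behind each peak are unknown.

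Gene models were 45756 curated RefSeq transcripts of 26180 genes on GRCm38, which is mm10, 21000 of them protein-coding. Peaks on assembled chromosomes (10490) were assigned to the gene with the TSS nearest to the peak edge, with ties kept. Exact Clopper-Pearson intervals (95%) cover counting over genes or peaks only, and neither are replicates, so no test was run. Motifs were searched as exact letters on both strands, CTCF by its consensus. Side windows were the 300 bp peak windows shifted by 1 kb to either side, and those that touched a peak were left out. Scripts ran in Python 3.11.15 with pandas 2.3.3 and scipy 1.17.1, and were tested on simulated peaks.

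The members and lists were chosen with earlier results of these data known. Of 86 listed pathway genes 85 were found. Values of 1 member are not reported here, though it is kept in all counts. The other members are named, the 10 member peaks of highest fold are described most fully, and up to 4 genes of each other list with the highest folds are named. Alternatives were a fold limit of 8, a p-value limit of 1e-20, midpoint distance, protein-coding genes only, every TSS within 1 or 10 kb, other windows, and other motif forms. Signal tracks were not analysed here.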

Additional observations from a re-analysis of the deposited data

How the results depend on the processing

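Of 52 alternatives, 39 gave counts and medians within 1.5 times the value reported, or shares inside its exact interval, and 13 did not. With peaks of fold at least 8, the members nearest to a peak went from 27 to 8, the peaks from 28 to 8, the members with a peak within 1 kb from 29 to 7, and the median fold from 5.90 to 12.0. With a caller p-value under 1e-20 these were 9, 9, 8 and 11.7. Fewer peaks enter by construction, and the members' share then stood at 14.3% beside 13.8% of all genes for fold, and at 16.1% beside 15.1% for the p-value. With every TSS within 10 kb, the share of member peaks with another gene's TSS near them went from 35.7% to 59.5%. This setting adds peaks that lie nearer to another gene, so a rise follows in part by construction. The share with a RUNX core went from 39.3% to 17.9% with TGTGGT only and to 14.3% in the central 100 bp. The share with an ETS site went from 7.14% to 35.7% with the shorter letters CCGGAA and to 0% in the central 100 bp. The shorter letters were found in 21.8% of all peaks, which lies inside the exact member interval of 18.6-55.9%. Distance from the midpoint left 26 members (46.4%, beside 38.2%), and protein-coding genes alone gave 28 (50.0%, beside 40.8%).

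No paired analysis was possible because the replicates were merged before peaks were called. No value here has a replicate error, and which peaks would be found in each ChIP sample alone was not tested. The fold has no confidence interval. The member groups are small, so their exact intervals are wide.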
